A study of Mus musculus with 9 samples.

Results

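The comparison described here set imiquimod against vaseline in the dermis of the mouse ear. It used 6 of the 9 RNA sequencing libraries of the study, chosen by their treatment labels, with 3 libraries in each group. The control group, VAS+H2O, had vaseline spread on the ears. The model group, IMQ+H2O, had imiquimod cream on the ears, which gives a psoriasis-like dermatitis. Both groups held C57BL/6 mice aged 8 weeks with the genotype labelled "wide type". Vaseline or imiquimod was applied for 5 days. Both groups also received water (ddH2O) by gavage for 10 days, begun 5 days before the ears were treated, so the handling was shared. The methods name male mice and RNA prepared from ear sheets of more than 1 mouse, and do not make clear whether a library pooled mice. The p-values below therefore measure the spread between these libraries. The other 3 libraries, from mice given imiquimod and the herbal decoction Xiao-Yin-Fang (IMQ+XYF), are not compared here. They entered the fit to help estimate the spread, and also bore on the choice of genes tested and the scaling.

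Imiquimod is a small molecule that activates Toll-like receptor 7, an endosomal sensor of single-stranded RNA. On mouse skin it brings in neutrophils and other myeloid cells, thickens the epidermis and drives the interleukin-23 and interleukin-17 axis. The dermis under the epidermis holds fibroblasts, vessels, nerves, hair follicles and glands, and in the ear it lies over a plate of cartilage and thin muscle. The account below concerns changes of moderate size that were alike in every library, together with abundant genes, transcription factors, receptors, metabolism and general cell programs.

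The 6 libraries held between 28756305 and 78781537 counts, and mitochondrial genes took between 9.78% and 14.3% of them. The first principal component of these libraries held 41.88% of the variance and separated the groups. Levels are given as CPM, the counts of a gene scaled to a common library size, after TMM scaling, a correction for library composition. Within each group the values stand in the order of the library numbers.

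The label dermis was checked against 18 lists of cell type markers. Markers said to be called, to rise or to fall passed the test described below. Of all genes tested, 0.856% rose and 0.517% fell by it. Fibroblast markers such as Col1a1 and Dcn summed to 15430 to 26560 CPM in VAS+H2O and 11080 to 18110 CPM in IMQ+H2O. The libraries also held epidermis and the other tissues of the ear. Keratinocyte markers summed to 5340 to 8849 CPM in VAS+H2O and to 3044 to 4610 CPM in IMQ+H2O, with 0 of 12 markers called. Markers of the hair matrix and cortex lay at 134 to 519 CPM in VAS+H2O and at 5.66 to 39.1 CPM in IMQ+H2O, and 9 of 14 fell. Cartilage markers lay at 1906 to 4231 CPM against 561 to 996 CPM, where 3 of 12 tested fell and Matn1 was at or under 3 counts in these libraries. Neutrophil markers lay at 130 to 164 CPM against 396 to 955 CPM, where 5 of 9 tested rose. Endothelial markers lay at 650 to 1041 CPM against 1367 to 1454 CPM, although 0 of 9 were called. In 8 of the 9 (88.9%) every IMQ+H2O value lay above every VAS+H2O value, beside 15.1% of all genes tested, and in 0 below. Smooth muscle and pericyte markers lay at 929 to 1334 CPM against 1342 to 1526 CPM, with 0 of 8 called. B and plasma cell markers lay at 24.4 to 28.7 CPM against 10.95 to 15.5 CPM, where 1 of 3 tested fell. The paper prepared epidermal and dermal ear sheets separately, and how cleanly they were parted was not tested. Skeletal muscle markers ranged from 726 to 3484 CPM within VAS+H2O. In such bulk samples, fewer cells of a type, less RNA per cell and less of a tissue left on the sheet cannot be told apart.

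**Figure D1:**
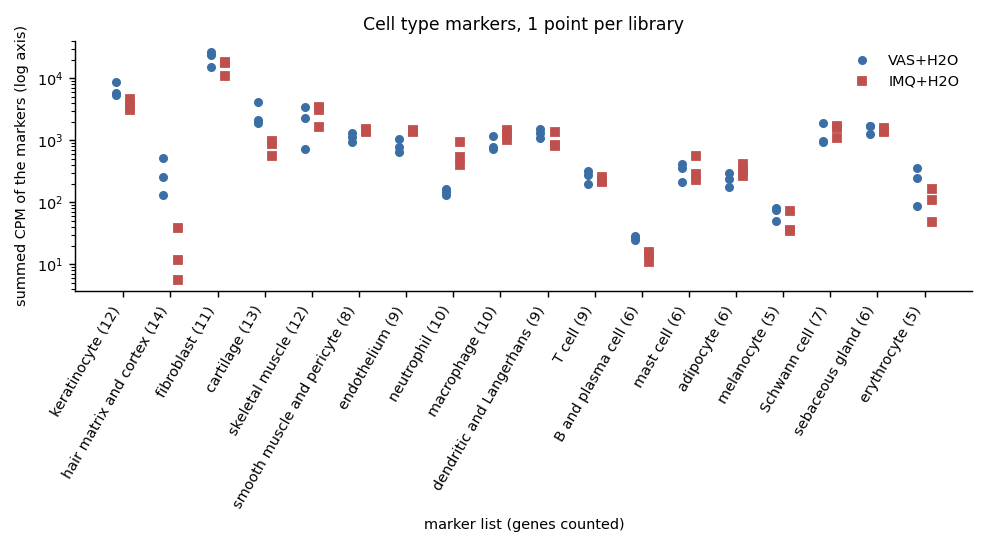
Summed CPM of each marker list on a log axis, 1 point per library, with VAS+H2O as blue circles and IMQ+H2O as red squares and the number of genes counted in parentheses. Hair matrix, cartilage, keratinocyte and B and plasma cell sums lie lower in all 3 IMQ+H2O libraries. Neutrophil and endothelial sums and, narrowly, smooth muscle and pericyte sums lie higher in all 3. The sums of the other lists overlap, among them skeletal muscle, macrophage, T cell and mast cell.

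Of 22430 genes tested, 192 rose (0.856%) and 116 fell (0.517%) with imiquimod at an adjusted p of 0.05 or lower, with no limit on the fold, by the quasi-likelihood test of edgeR and Benjamini-Hochberg adjustment. A gene is called below where it passed this test. Of the 308 called genes, 184 had an absolute log2 fold change under 2, and of these 110 rose and 74 fell. Changes under 1 made up 85 of them, with 47 rises and 38 falls. In all 308 the 3 values of one group lay wholly above the 3 of the other. Such separation was itself common, since 15.1% of all tested genes lay wholly higher and 16.5% wholly lower with imiquimod. DESeq2 called more genes, 969 higher (4.32%) and 869 lower (3.87%) among those tested, and these included all 308.

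The number of calls changed with the libraries in the fit. It was 1087 with only the 6 compared libraries, and 506, 982 and 227 without replicate 1, 2 or 3 of IMQ+XYF. Without replicate 1, 2 or 3 of IMQ+H2O the calls numbered 135, 29 and 26, and without replicate 1, 2 or 3 of VAS+H2O they numbered 95, 35 and 29. Of the 184 moderate calls, 6 were made in every one of these 6 fits and 121 in none. The 6 were the rises of Degs1, Fth1, Ccl12 and Cfp and the falls of Extl1 and Tmem119.

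Degs1 encodes the desaturase that turns dihydroceramide into ceramide (ENSMUSG00000038633, chr1:182275772-182282804, GRCm38). Its level was 86.3, 78.5 and 81.7 CPM in VAS+H2O and 184, 183 and 163 CPM in IMQ+H2O. The rise was 1.11 ± 0.0989 on the log2 scale (SE, adjusted p = 0.00478). The lowest IMQ+H2O library lay far above the highest VAS+H2O library, and each group was tight. Fth1 encodes the heavy chain of ferritin, the iron storage protein (ENSMUSG00000024661, chr19:9980598-9985098). Fth1 counted 2142, 2100 and 2212 CPM with vaseline and 5365, 5276 and 6331 CPM with imiquimod, a log2 rise of 1.40 ± 0.133 (adjusted p = 0.00647). The 3 control values differed little from each other beside the distance between the groups.

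Ccl12, a chemokine that attracts monocytes (chr11:82101845-82103400), stood at 8.18, 9.34 and 10.8 CPM against 30.3, 40.4 and 40.8 CPM. It rose by 1.98 ± 0.192 (log2, SE, adjusted p = 0.00703). Cfp encodes properdin, which stabilizes the alternative complement convertase (chrX:20925454-20931555). Cfp levels were 20.5, 24.4 and 19.8 CPM against 47.6, 68.4 and 58.2 CPM, a rise of 1.43 ± 0.144 (log2, SE, adjusted p = 0.00767). Neither gene had overlapping groups, and the spread within IMQ+H2O was wider than within VAS+H2O. The highest adjusted p of these 4 rises over all alternatives was 0.0423, for Cfp.

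The next rises by p were mostly genes of myeloid cells. Rac2 is a haematopoietic small GTPase that assembles the phagocyte NADPH oxidase. It was 15.8, 18.3 and 14.9 CPM against 41.3, 60.5 and 67.0 CPM, a log2 rise of 1.78 ± 0.193 (adjusted p = 0.0114). The call was lost without replicate 3 of VAS+H2O, where the adjusted p was 0.0615. Fgr, a Src family kinase of myeloid cells, rose by 1.52 ± 0.186 (adjusted p = 0.0162) and Itgb2, the common beta chain of the leukocyte integrins, by 1.49 ± 0.183 (adjusted p = 0.0164). Pglyrp1, a bactericidal protein of neutrophil granules that binds peptidoglycan, stood at 4.54, 4.67 and 3.95 CPM against 14.5, 13.4 and 14.8 CPM. Its log2 rise was 1.70 ± 0.217 (adjusted p = 0.0171). Fgr, Itgb2 and Pglyrp1 each lost the call without replicate 2 or 3 of IMQ+H2O or replicate 3 of VAS+H2O, and Fgr and Pglyrp1 also without replicate 2 of VAS+H2O, at adjusted p up to 0.0781. Neutrophil marker sums were higher in the same libraries, as given above, and their part in the result was not tested.

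A further rise belonged to mitochondria. C1qbp encodes a mitochondrial matrix protein needed for translation in the organelle, and also binds complement C1q. It went from 37.6, 40.6 and 40.8 CPM to 74.4, 67.8 and 76.8 CPM, a log2 rise of 0.88 ± 0.115 (adjusted p = 0.0178). C1qbp was tight in both groups and they did not overlap. It was called in only 1 of the 6 fits that left out a library of these groups, the fit without replicate 1 of IMQ+H2O, and otherwise its adjusted p reached 0.0865.

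**Figure D2:**
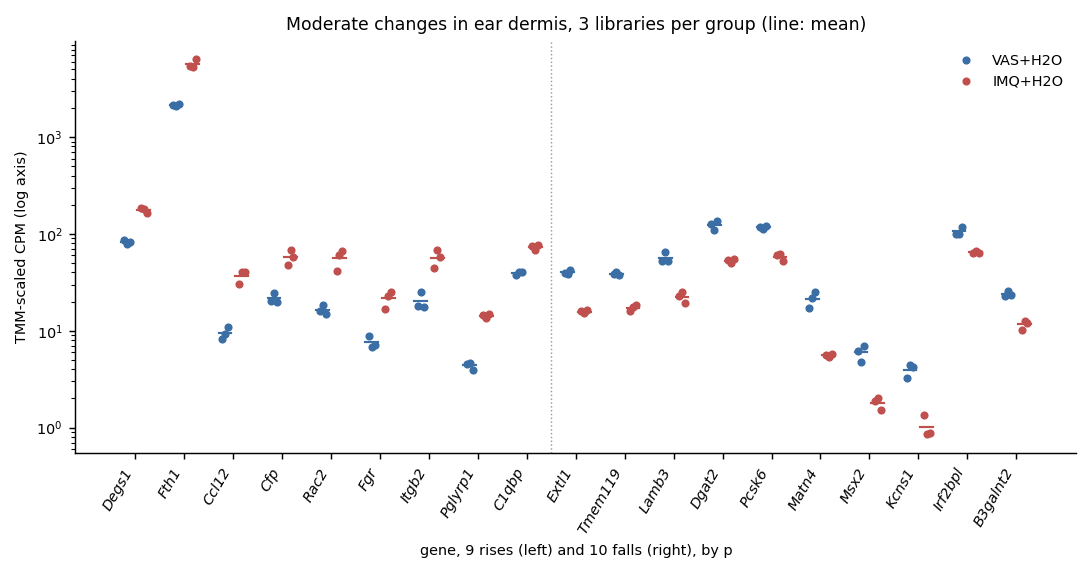
TMM-scaled CPM (log axis) of 9 rises and 10 falls with small p among called genes with an absolute log2 change under 2, with 3 points per group and a line at each mean. In each gene the 3 IMQ+H2O points lie wholly to one side of the 3 VAS+H2O points, as for Fth1, whose control values lie at 2100 to 2212 CPM and imiquimod values at 5276 to 6331 CPM.

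Among the falls, Extl1 and Tmem119 were the steadiest. Extl1 encodes a glycosyltransferase of the exostosin family, which builds heparan sulfate (ENSMUSG00000028838, chr4:134356372-134383850). It stood at 39.5, 38.6 and 42.0 CPM in VAS+H2O and at 16.0, 15.1 and 16.2 CPM in IMQ+H2O. The log2 change was -1.35 ± 0.124 (SE, adjusted p = 0.00543). Tmem119 encodes a membrane protein known from osteoblasts and microglia (ENSMUSG00000054675, chr5:113793729-113800516). Its values were 38.1, 40.4 and 37.6 CPM against 16.1, 17.4 and 18.4 CPM, a log2 change of -1.16 ± 0.114 (adjusted p = 0.00718). In both genes all libraries of a group lay within a few CPM of each other. Their highest adjusted p over the alternatives was 0.0357 for Extl1 and 0.0457 for Tmem119.

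Lamb3 encodes the beta chain of laminin-332, which anchors basal keratinocytes to the basement membrane. It fell from 53.1, 64.6 and 52.6 CPM to 22.9, 25.3 and 19.4 CPM (log2 change -1.34 ± 0.152, adjusted p = 0.0127). Without replicate 3 of IMQ+H2O its adjusted p was 0.0631. Dgat2, which makes triglyceride from diacylglycerol, fell from 127, 111 and 137 CPM to 53.6, 50.2 and 54.5 CPM (log2 change -1.24 ± 0.148, adjusted p = 0.0161). Dgat2 lost the call without replicate 2 or 3 of IMQ+H2O or replicate 3 of VAS+H2O, at adjusted p up to 0.0707. Pcsk6, a proprotein convertase that activates growth factor precursors, went from 118, 113 and 120 CPM to 59.97, 62.5 and 52.4 CPM. Its log2 change was -1.01 ± 0.127 (adjusted p = 0.0166), and adjusted p reached 0.0765 when replicate 2 or 3 of either group was left out. Every control library of these genes lay well above every imiquimod library.

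The remaining falls joined genes of cartilage, hair and other functions. Matn4, a matrilin of the extracellular matrix, went from 17.3, 21.7 and 25.01 CPM to 5.65, 5.36 and 5.75 CPM (log2 change -1.93 ± 0.259, adjusted p = 0.0201). Kcns1, a modifier subunit of voltage-gated potassium channels, had a log2 change of -1.96 ± 0.275 (adjusted p = 0.0240). Irf2bpl, which encodes a nuclear RING finger protein, changed by less but evenly. It was 99.6, 100.4 and 118 CPM against 63.2, 66.1 and 63.8 CPM, a log2 change of -0.72 ± 0.104 (adjusted p = 0.0247). B3galnt2, a glycosyltransferase that acts on alpha-dystroglycan, had a log2 change of -1.04 ± 0.152 (adjusted p = 0.0247). B3galnt2 lost the call whichever library of these groups was left out, and Matn4, Kcns1 and Irf2bpl lost it without replicate 2 or 3 of either group, with the highest adjusted p at 0.101. Matn4 also lost it without replicate 1 of IMQ+H2O, as did Irf2bpl. The cartilage marker sums given above were lower in the same libraries, and their part in the result for Matn4 was not tested.

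Counting by strand is not described in the sources used here, and 14 of the 78 called genes named in this account had exons that overlap another gene. The exons of B3galnt2, Bst1, Cp, Foxq1, Hk3, Hspe1, Matn4 and Plin4 overlap those of a coding gene on the opposite strand. Reads in the overlap cannot be told apart if strand was not used in counting. Fpr2, Ifitm2, Itgam, Nr1h3, Pcsk6 and Serpina3m overlap a gene or transcript annotated on their own strand. Their values are uncertain in the overlap whether or not strand was used.

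Among 295 transcription factor genes in 14 lists, 2 rose and 4 fell, beside 0.856% rises and 0.517% falls over all genes tested. Their median log2 change was -0.16, beside -0.02 for all genes tested. With imiquimod 25.4% of them lay wholly lower and 9.15% wholly higher, beside 16.5% and 15.1% of all genes tested. Spi1 encodes PU.1, the ETS factor that sets myeloid fate (chr2:91082390-91115756). It rose from 23.8, 25.4 and 18.1 CPM to 36.5, 50.7 and 53.2 CPM (log2 1.07 ± 0.180, adjusted p = 0.0342). Nr1h3 encodes the oxysterol receptor LXR-alpha, which induces cholesterol efflux genes (chr2:91184061-91202834). It rose from 10.3, 9.14 and 11.5 CPM to 16.6, 18.6 and 16.9 CPM (log2 0.75 ± 0.138, adjusted p = 0.0429). Both genes are active in macrophages, whose marker sums were 737 to 1179 CPM in VAS+H2O and 1006 to 1488 CPM in IMQ+H2O with 0 of 10 called. Their part in the result was not tested.

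The falls included a retinoic acid receptor and factors of the hair follicle. Rarg encodes RAR-gamma, the main retinoic acid receptor of epidermis (chr15:102234938-102257517, minus strand). It fell from 320, 265 and 282 CPM to 166, 177 and 173 CPM (log2 change -0.75 ± 0.138, adjusted p = 0.0433). Msx2, a homeobox factor of the hair matrix, fell from 6.21, 4.78 and 6.94 CPM to 1.86, 2.04 and 1.502 CPM (log2 change -1.73 ± 0.239, adjusted p = 0.0230). Foxq1, a forkhead factor required for normal hair structure, fell from 10.2, 11.6 and 10.1 CPM to 3.31, 4.78 and 3.98 CPM (log2 change -1.40 ± 0.205, adjusted p = 0.0247). Nfatc2, the calcineurin-dependent factor NFAT1, fell from 43.5, 74.7 and 81.7 CPM to 25.1, 27.4 and 23.5 CPM (log2 change -1.40 ± 0.229, adjusted p = 0.0314). The control libraries of Nfatc2 differed from each other by more than the gap to the imiquimod group, and the other 3 genes were tighter. DESeq2 called 6 factor genes higher and 30 lower, and the fit of only the 6 compared libraries called 3 and 20. With 1 library of these groups left out, 0 to 2 factor genes were called higher and 0 to 2 lower. The highest adjusted p was 0.160 for Rarg, 0.107 for Foxq1, 0.0981 for Msx2, 0.135 for Nfatc2, 0.136 for Spi1 and 0.133 for Nr1h3.

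Promoters were read for the 4 of these 6 genes with an entry in the RefSeq table, Msx2, Nfatc2, Nr1h3 and Rarg, as 7 windows of 250 bases before a start. Both strands were searched for 4 motifs, the NF-kB consensus, C/EBP (TTGCNNAA), AP-1 (TGANTCA) and STAT (TTCNNNGAA). Only the C/EBP motif was found, once, in a window of Rarg. Among all 32851 promoters of the table in windows of the same length, C/EBP matched in 9.56%, NF-kB in 3.90%, AP-1 in 6.75% and STAT in 7.02%. The Rarg window is shown because it held that single match. It covers chr15:102246501-102246750 on the minus strand of GRCm38.p6 (RefSeq), inside the extent of the gene and before an internal start. The capitals mark the match, which begins 233 bases before the start.
Rarg: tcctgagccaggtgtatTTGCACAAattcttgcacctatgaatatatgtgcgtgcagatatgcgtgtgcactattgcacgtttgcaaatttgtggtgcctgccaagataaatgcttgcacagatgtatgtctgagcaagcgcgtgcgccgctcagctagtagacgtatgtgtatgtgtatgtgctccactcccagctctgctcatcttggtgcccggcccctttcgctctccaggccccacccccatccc
The match is a description of these letters and no evidence of binding.

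Lists of factors for hair follicle and epidermis, the KLF and EGR families, and SMAD and TGF-beta signalling lay lower as a whole. In the hair follicle and epidermal list 1 of 31 fitted changes was positive and the median was -0.67. This list had 14 genes (45.2%) wholly lower, beside 16.5% of all genes tested, and only Msx2 and Foxq1 called. Its median per library, as log2(CPM + 1) minus the VAS+H2O mean, was -0.17, 0.10 and 0.11 in VAS+H2O and -0.66, -0.40 and -0.75 in IMQ+H2O. The keratinocyte and hair marker sums were lower in the same libraries, and their part in the result was not tested. Of 14 SMAD and TGF-beta genes 0 had a positive change, the median was -0.46 and 0 were called. The smallest p there belonged to Id4, an inhibitor of basic helix-loop-helix factors (log2 change -0.81 ± 0.271, adjusted p = 0.149), and Ski, a repressor of SMAD proteins (log2 change -1.01 ± 0.352, adjusted p = 0.161). The library medians of this list were within 0.01 of 0 in VAS+H2O and were -0.46, -0.41 and -0.30 in IMQ+H2O.

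KLF and EGR factors, zinc finger proteins that include immediate early genes, had 3 of 19 changes positive, a median of -0.47 and 0 calls. Klf10 was 114, 134 and 120 CPM against 92.9, 86.9 and 83.8 CPM (log2 change -0.48 ± 0.101, adjusted p = 0.0615). Klf9 had a log2 change of -0.47 ± 0.114 (adjusted p = 0.0797). The 19 AP-1 and Maf genes, which hold further immediate early genes, had a median of -0.30 and 0 calls. The library medians of this list overlapped, at -0.27, 0.11 and 0.18 in VAS+H2O and -0.52, -0.12 and -0.24 in IMQ+H2O. Fosb was 1322, 1474 and 2384 CPM against 650, 955 and 781 CPM (log2 change -1.12 ± 0.233, adjusted p = 0.0582), and Jun was 1761, 1661 and 2342 CPM against 1083, 1193 and 1074 CPM (log2 change -0.78 ± 0.165, adjusted p = 0.0596). These 4 genes kept the groups apart and missed the threshold.

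Factors of the inflammatory pathways had medians closer to that of all genes. The 11 NF-kB and IkB genes had 0 calls and a median of -0.10, which turned positive without replicate 1 of IMQ+H2O (0.13) or replicate 2 of VAS+H2O (0.13). Their smallest p belonged to Bcl3, a nuclear IkB protein (log2 change 0.79 ± 0.332, adjusted p = 0.223), and Nfkbiz, which encodes IkB-zeta (log2 change -0.50 ± 0.214, adjusted p = 0.230). The 16 STAT and IRF genes had 0 calls and a median of -0.04, which was 0.05 without replicate 3 of VAS+H2O. Stat4 was at 0.582, 0.250 and 0.415 CPM against 0.344, 2.64 and 2.97 CPM, so that its groups overlapped (adjusted p = 0.125), and Irf1 had a log2 change of -0.67 ± 0.309 (adjusted p = 0.259). For nuclear receptors, with Rarg lower and Nr1h3 higher, 10 of 35 changes were positive and the median was -0.16. Of them 13 (37.1%) lay wholly lower (12 under RLE scaling), beside 16.5% of all genes tested.

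Endothelial factors leaned the other way, with 11 of 14 changes positive, a median of 0.26 and 0 calls. The library medians of this list overlapped narrowly, at -0.147, -0.014 and 0.287 in VAS+H2O and 0.294, 0.376 and 0.286 in IMQ+H2O. Sox18, a SOX factor of vessel and lymphatic development, was 23.6, 14.03 and 29.4 CPM against 44.7, 37.6 and 52.6 CPM (log2 change 1.01 ± 0.306, adjusted p = 0.126). Hes1, a Notch target, was one of the 3 with a negative change (log2 change -0.55 ± 0.155, adjusted p = 0.107). The endothelial marker sum was higher in the same libraries, and its part in the result was not tested.

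Most receptor genes that rose are known from phagocytes. Among 372 receptor genes 20 rose and 2 fell, beside 0.856% rises and 0.517% falls over all genes tested. Their median log2 change was 0.02. DESeq2 called 58 receptor genes higher and 22 lower, and the fit of only the 6 compared libraries called 36 and 20. With 1 library of these groups left out the rises numbered 5 to 24 and the falls 0 to 1. The lowest count of rises, 5, was reached without replicate 2 or 3 of IMQ+H2O and without replicate 3 of VAS+H2O. The pattern recognition and scavenger list had 10 of 42 genes called, all higher, and a median of 0.78. The library medians of this list overlapped narrowly, at -0.086, 0.305 and -0.131 in VAS+H2O and 0.297, 0.828 and 0.964 in IMQ+H2O. The list of Fc and leukocyte immunoglobulin-like receptors had 5 of 28 called, all higher, and a median of 0.90. Of these 28 genes, 14 lay wholly higher and 1 wholly lower, beside 15.1% and 16.5% of all genes tested. Neutrophil markers were higher in the same libraries, with 5 of 9 called. Csf3r and Clec4d stand in both the neutrophil list and the receptor lists, and the part of cell numbers was not tested.

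Formyl peptide receptors, which guide phagocytes to bacterial and mitochondrial peptides, showed the smallest p. Fpr1 was at 0.121, 0.139 and 0.134 CPM in VAS+H2O and at 5.48, 7.23 and 9.75 CPM in IMQ+H2O (log2 change 5.81 ± 0.288, adjusted p = 0.000256). Fpr2 was at 0.485, 0.473 and 0.268 CPM against 6.23, 7.18 and 11.3 CPM (log2 change 4.36 ± 0.371, adjusted p = 0.00478). Both were near absent in controls and present in every imiquimod library. Msr1, a class A scavenger receptor of macrophages, was already present in controls at 6.53, 8.95 and 5.84 CPM, and reached 26.7, 38.1 and 35.4 CPM with imiquimod (log2 change 2.24 ± 0.199, adjusted p = 0.00478). Marco, a related scavenger receptor, had a log2 rise of 2.67 ± 0.391 (adjusted p = 0.0247). The calls of Fpr1, Fpr2 and Msr1 were made whichever library of these groups was left out.

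Several C-type lectins of myeloid cells rose. Clec4d, which senses mycobacterial glycolipid, had a log2 rise of 3.08 (adjusted p = 0.0247). Clec12a, an inhibitory receptor for uric acid crystals, was at 1.92, 1.42 and 1.03 CPM against 2.997, 7.96 and 6.11 CPM (log2 change 1.98 ± 0.365, adjusted p = 0.0435). Clec4a1 and Clec4a2, both on chromosome 6, had log2 rises of 1.498 and 1.46 (adjusted p = 0.0436 for each). Trem1, an amplifier of neutrophil and monocyte activation, was at 0.0728, 0.306 and 0.563 CPM against 5.82, 7.62 and 20.3 CPM (adjusted p = 0.0247). Trem3 lay at or under the floor of 3 counts in every control library and at 0.758, 1.09 and 2.77 CPM with imiquimod (adjusted p = 0.0342), and no fold is given.

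Fcer1g encodes the signalling chain shared by Fc receptors. It rose from 35.3, 43.5 and 36.8 CPM to 63.6, 108 and 97.4 CPM (log2 change 1.22 ± 0.194, adjusted p = 0.0292). Fcgr4, an activating receptor for IgG, had a log2 rise of 3.34 ± 0.504 (adjusted p = 0.0248). Other receptors of the list rose with it. Siglece, a sialic acid lectin that restrains neutrophils, went from 1.29, 0.889 and 0.965 CPM to 7.03, 10.5 and 12.4 CPM (log2 change 3.25 ± 0.286, adjusted p = 0.00478). Cd300lf, which carries inhibitory motifs, had a log2 rise of 4.84 ± 0.718 (adjusted p = 0.0247), and Sirpb1a, a signal regulatory protein, one of 3.11 ± 0.336 (adjusted p = 0.0114). The calls of Siglece and Sirpb1a were made in all 6 fits without a library of these groups, while those of Fcgr4, Fcer1g and Cd300lf were made in 2, 1 and 1.

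Calls among cytokine and chemokine receptors were all rises. Csf3r, the receptor for granulocyte colony-stimulating factor, rose by 3.53 ± 0.479 (log2, adjusted p = 0.0213) and was the only one called of 55 interleukin and haematopoietin receptors, whose median was 0.15. Il2rg, the common gamma chain, was at 11.3, 18.3 and 15.1 CPM against 26.6, 40.1 and 36.5 CPM (log2 change 1.21 ± 0.254, adjusted p = 0.0589). Of 50 lipid mediator and chemoattractant receptors, Ccr1 (log2 rise 3.41 ± 0.540, adjusted p = 0.0288) and Ccr7 (log2 rise 2.86 ± 0.469, adjusted p = 0.0314) were called. Ccr1 serves inflammatory chemokines on monocytes and neutrophils, and Ccr7 guides dendritic cells to lymph nodes. Ccr7 was at 0.873, 0.917 and 1.11 CPM against 3.38, 11.1 and 6.71 CPM. The sums of dendritic and Langerhans markers, Ccr7 included, were 1090 to 1546 CPM and 811 to 1383 CPM and overlapped. TNF receptors had 0 of 26 called. The lowest p among them were those of Tnfrsf1a (148, 164 and 182 CPM against 231, 260 and 254 CPM, log2 change 0.59 ± 0.135, adjusted p = 0.0690) and Tnfrsf9 (adjusted p = 0.0831).

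Receptors of tissue growth and patterning were described in a pair of lists. Ephb3, an ephrin receptor of epithelia, fell from 26.6, 29.5 and 26.7 CPM to 13.2, 16.4 and 16.4 CPM (log2 change -0.85 ± 0.131, adjusted p = 0.0271). It was the only one called of 44 receptor tyrosine kinases, of which 17 had a positive change. Of the 44, 8 (18.2%) lay wholly higher and 12 (27.3%) wholly lower, beside 15.1% and 16.5% of all genes tested. Fgfr2, a receptor for fibroblast growth factors in keratinocytes, was at 170, 147 and 151 CPM against 86.7, 80.1 and 75.9 CPM (log2 change -0.95 ± 0.201, adjusted p = 0.0615). For TGF-beta, BMP, Notch, Wnt and Hedgehog receptors 0 of 41 were called, 8 changes were positive, the median was -0.22 and 15 genes (36.6%) lay wholly lower. Notch2 was nearly constant in controls at 163, 162 and 164 CPM and was 103, 110 and 114 CPM with imiquimod (log2 change -0.58 ± 0.123, adjusted p = 0.0609). Bmpr1a, a BMP receptor that hair follicles require, had a log2 change of -0.46 ± 0.0985 (adjusted p = 0.0621). Among 62 receptors for amines, nucleotides and peptides 0 were called, and the smallest p belonged to Gprc5d, which is expressed in hair follicles (adjusted p = 0.0633), and the serotonin receptor Htr2b (log2 change 1.85 ± 0.455, adjusted p = 0.0814).

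Integrins moved both ways. Itgam, the alpha chain CD11b that pairs with Itgb2, rose from 4.68, 12.3 and 10.1 CPM to 41.7, 66.6 and 49.9 CPM (log2 change 2.55 ± 0.364, adjusted p = 0.0247). Itga11, a collagen receptor of fibroblasts, fell from 39.1, 36.8 and 33.1 CPM to 18.4, 15.6 and 14.5 CPM (log2 change -1.17 ± 0.174, adjusted p = 0.0247). The fibroblast marker sums of the groups overlapped, and 0 of 11 fibroblast markers were called. Of these markers 3 had a positive change, and their median was -0.39. Wholly lower were 4 (36.4%) and wholly higher 0, beside 16.5% and 15.1% of all genes tested. The part of fibroblasts in the result was not tested.

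Metabolic genes gave 18 rises and 6 falls among 635, beside 0.856% rises and 0.517% falls over all genes tested. Their median was 0.05. DESeq2 called 77 metabolic genes higher and 32 lower, and the fit of only the 6 compared libraries called 50 and 19. With 1 library of these groups left out there were 4 to 11 rises and 0 to 1 falls. The fewest rises, 4, came without replicate 3 of VAS+H2O. In iron and zinc handling 5 of 27 genes rose and 1 fell, with a list median of 0.05. Beside Fth1, the siderophore-binding protein Lcn2 rose from 20.5, 32.2 and 22.4 CPM to 188, 215 and 296 CPM (log2 change 3.22 ± 0.226, adjusted p = 0.00255). Slc39a14, an importer of zinc and iron, rose from 40.6, 53.7 and 47.2 CPM to 124, 178 and 195 CPM (log2 change 1.81 ± 0.301, adjusted p = 0.0326). Cp, the ferroxidase ceruloplasmin, changed by the least of all called genes of the list, from 123, 114 and 120 CPM to 153, 180 and 172 CPM (log2 change 0.50 ± 0.0965, adjusted p = 0.0484). Slc11a1, the metal transporter of the phagosome, had a log2 rise of 1.46 ± 0.254 (adjusted p = 0.0373). Slc40a1, which encodes ferroportin, the exporter of iron, fell from 37.8, 28.4 and 24.8 CPM to 9.58, 8.66 and 11.8 CPM (log2 change -1.60 ± 0.292, adjusted p = 0.0429). With 1 library of these groups left out, Fth1 and Lcn2 were called in all 6 fits, Slc39a14 and Slc11a1 in 1 each, and Cp and Slc40a1 in 0. Neutrophil marker sums were higher in the same libraries, and their part in the result was not tested.

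Lipid genes were split between pathways. Fatty acid synthesis and desaturation had 0 of 22 genes called, 5 positive changes and a median of -0.35. Of these genes 8 (36.4%) lay wholly lower, beside 16.5% of all genes tested. Thrsp, a regulator of lipogenesis, was at 14.5, 9.81 and 14.8 CPM against 5.10, 6.38 and 4.49 CPM (log2 change -1.29 ± 0.302, adjusted p = 0.0731), and the desaturase Scd2 had a log2 change of -0.66 ± 0.162 (adjusted p = 0.0817). In the triglyceride list Dgat2 fell and Plin4 rose. Plin4, a coat protein of lipid droplets and also one of the adipocyte markers, went from 97.5, 130 and 95.3 CPM to 177, 215 and 204 CPM (log2 change 0.89 ± 0.142, adjusted p = 0.0294). The adipocyte marker sums, 176 to 295 CPM and 270 to 413 CPM, overlapped. In the sphingolipid list Degs1 was the only call of 33 genes, the median was -0.17, and Acer1, the alkaline ceramidase of epidermis, had the next smallest p (log2 change -0.86 ± 0.201, adjusted p = 0.0729). Without replicate 2 of VAS+H2O this median was 0.002. In the fatty acid oxidation list Ucp2, a mitochondrial carrier, was at 106, 139 and 129 CPM against 178, 239 and 203 CPM (log2 change 0.73 ± 0.157, adjusted p = 0.0633). Cholesterol synthesis and transport had 0 of 36 called and a median of -0.21, with Stard4 at a log2 change of -0.52 ± 0.112 (adjusted p = 0.0633) and the lipocalin Apod at 1.09 ± 0.259 (adjusted p = 0.0749).

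Genes of energy metabolism differed by small amounts. The 79 nuclear genes of the respiratory chain and ATP synthase had 70 positive changes and a median of 0.17. Of them 34 (43.0%) lay wholly higher, beside 15.1% of all genes tested. For 72 of the 79 the 95% interval of the fit lay within 1 of no change on the log2 scale. Cycs, which encodes cytochrome c, was the only one called, from 43.5, 51.4 and 44.4 CPM to 77.7, 74.7 and 86.5 CPM (log2 change 0.78 ± 0.125, adjusted p = 0.0301). Ndufa12, a subunit of complex I, had a log2 change of 0.43 ± 0.0949 (adjusted p = 0.0654). The 13 proteins encoded in mitochondrial DNA had 13 positive changes and a median of 0.14, yet in 0 of them did the groups separate. Their smallest p belonged to mt-Nd1 (adjusted p = 0.427) and mt-Co2 (adjusted p = 0.473), and nuclear copies of the mitochondrial sequence share their reads. In the tricarboxylic acid list Acod1, the itaconate-forming enzyme of activated macrophages, rose from 0.388, 2.72 and 1.11 CPM to 15.9, 20.7 and 42.3 CPM (log2 change 4.25 ± 0.805, adjusted p = 0.0449). It stood apart from the cycle's own enzymes, of which Mdh2 had the smallest p (log2 change 0.37 ± 0.116, adjusted p = 0.130). In the list for glucose uptake, glycolysis and lactate Hk3, a hexokinase of myeloid cells, had a log2 rise of 1.32 ± 0.237 (adjusted p = 0.0407) and was the only call of 34. Slc16a3, the lactate exporter MCT4, had a log2 change of 1.49 ± 0.305 (adjusted p = 0.0559).

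Among the genes of redox defence, Sod2, the mitochondrial superoxide dismutase, rose from 54.8, 77.1 and 59.5 CPM to 125, 156 and 208 CPM (log2 change 1.35 ± 0.248, adjusted p = 0.0429). Gsr, which regenerates reduced glutathione, rose by 0.90 ± 0.168 (log2, adjusted p = 0.0436) and Gpx2, a glutathione peroxidase of epithelia, by 1.59 ± 0.299 (log2, adjusted p = 0.0443). The other 41 of 44 glutathione and antioxidant genes were not called, and the list's median was 0.02 (-0.02 without replicate 2 of VAS+H2O). Of 13 genes for NADPH oxidases and peroxidases Rac2 was called, the median was 0.52, and Ncf4, a subunit of the phagocyte oxidase, had a log2 change of 1.31 ± 0.341 (adjusted p = 0.0913).

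Of 20 NAD and sirtuin genes 2 were called, both higher, Cd38 and Bst1, which consume NAD at the cell surface. The median of that list was -0.06. Wholly higher were 2 (10.0%) and wholly lower 2 (10.0%), beside 15.1% and 16.5% of all genes tested. Cd38 went from 5.34, 6.78 and 7.33 CPM to 18.8, 20.3 and 25.5 CPM (log2 change 1.73 ± 0.279, adjusted p = 0.0301). Bst1, its neighbour on chromosome 5, went from 6.31, 4.98 and 5.56 CPM to 20.1, 24.6 and 27.4 CPM (log2 change 2.10 ± 0.186, adjusted p = 0.00478). The Bst1 call was made in every fit, and that of Cd38 in none of the 6 that left out a library of these groups. Nt5e, the ectoenzyme CD73 that forms adenosine from AMP, moved down. It fell from 150, 144 and 130 CPM to 71.2, 79.2 and 62.7 CPM (log2 change -0.99 ± 0.146, adjusted p = 0.0247). The purine and pyrimidine list that holds it had a median of 0.18. In that list 18 of 40 genes (45.0%) lay wholly higher, beside 15.1% of all genes tested. Ampd3, an AMP deaminase, came next by p (log2 change 0.80 ± 0.180, adjusted p = 0.0689).

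Amino acid and retinoid genes added a few calls. Mthfd2, a mitochondrial enzyme of the folate cycle, rose by 1.09 ± 0.213 (log2, adjusted p = 0.0499). Pycr1, the last enzyme of proline synthesis, fell from 4.54, 4.11 and 7.09 CPM to 1.58, 1.02 and 1.46 CPM (log2 change -1.96 ± 0.325, adjusted p = 0.0324). Slc1a4, a transporter of serine and other neutral amino acids, had a log2 change of -1.22 ± 0.235 (adjusted p = 0.0470), while Slc3a2, the heavy chain of several other transporters, had one of 0.62 ± 0.139 (adjusted p = 0.0670). Cyp26a1, which degrades retinoic acid and is itself induced by it, fell from 39.7, 24.0 and 15.3 CPM to 3.51, 4.29 and 6.26 CPM (log2 change -2.48 ± 0.433, adjusted p = 0.0382). Its control libraries were spread widely, and the lowest of them still lay above every imiquimod library. The receptor gene Rarg, described above, fell in the same libraries, and a link between them was not tested. The retinoid, steroid and xenobiotic list, with Dgat2 and Cyp26a1 called, had 21 of 43 changes positive and a median of -0.02. Of the 43, 9 (20.9%) lay wholly higher and 7 (16.3%) wholly lower, beside 15.1% and 16.5% of all genes tested. Mthfd2, Pycr1, Slc1a4 and Cyp26a1 each lost the call whichever library of these groups was left out.

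Enzymes for hyaluronan and glycosaminoglycans had 0 of 38 called, 10 positive changes and a median of -0.17. Of these genes 11 (28.9%) lay wholly lower, beside 16.5% of all genes tested. Xylt1, which starts glycosaminoglycan chains on core proteins, was at 160, 132 and 148 CPM against 68.6, 42.0 and 44.0 CPM (log2 change -1.51 ± 0.375, adjusted p = 0.0831). Chst3, a chondroitin sulfotransferase, had a log2 change of -0.64 ± 0.166 (adjusted p = 0.0885). Cartilage marker sums were lower in the same libraries, and their part in the result was not tested.

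**Figure D3:**
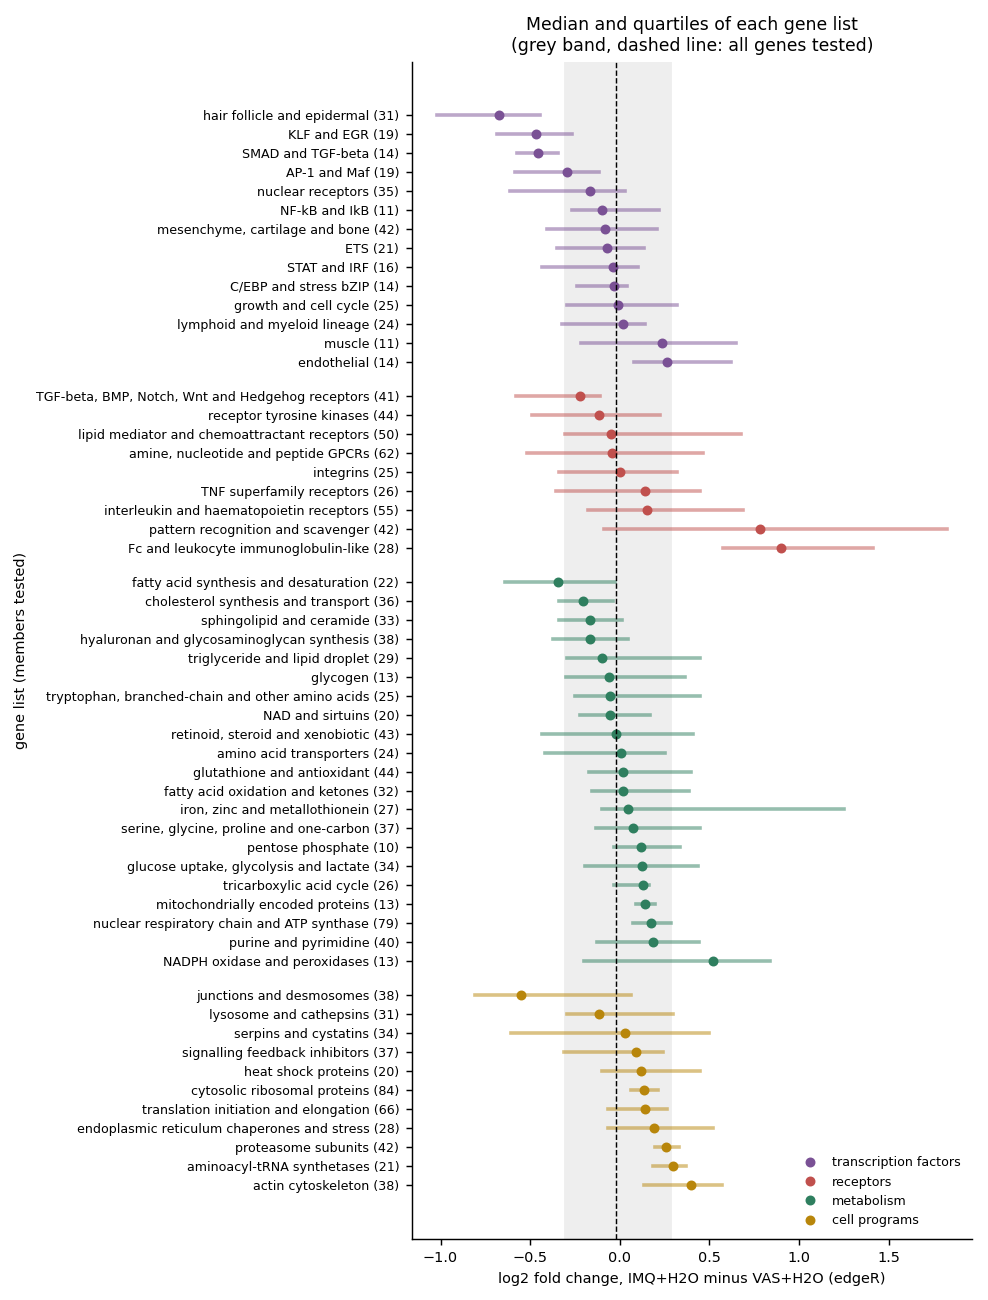
Median (point) and quartiles (bar) of the log2 fold change in each of the 55 gene lists, grouped by class, with the number of members tested in parentheses. The dashed line and grey band give the median (-0.02) and quartiles (-0.31 and 0.29) of all genes tested, and hair follicle and epidermal factors (-0.67) lie furthest to the left and Fc and leukocyte immunoglobulin-like receptors (0.90) furthest to the right.

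The lists of cell programs, which range from translation and protein turnover to junctions and protease inhibitors, held 437 genes. Of these 11 were called higher and 1 lower, beside 0.856% rises and 0.517% falls over all genes tested. Their median was 0.15, and 36.2% lay wholly higher against 10.3% wholly lower, beside 15.1% and 16.5% of all genes tested. DESeq2 called 53 of these genes higher and 9 lower, and the fit of only the 6 compared libraries called 43 and 5. With 1 library of these groups left out there were 0 to 6 rises and 0 to 1 falls. No rise was called without replicate 2 or 3 of IMQ+H2O or without any one library of VAS+H2O. The aminoacyl-tRNA synthetases, which charge transfer RNAs for translation, had 19 of 21 changes positive and a median of 0.30. In 16 of them (76.2%) the groups lay wholly apart and higher, and 0 were called by either test. Yars was at 33.8, 30.4 and 36.9 CPM against 41.5, 43.7 and 48.1 CPM (log2 change 0.40 ± 0.123, adjusted p = 0.129), and Kars at 93.9, 104.5 and 96.4 CPM against 128, 121 and 135 CPM (log2 change 0.38 ± 0.120, adjusted p = 0.134). The library medians of this list were -0.04, 0.05 and -0.01 in VAS+H2O and 0.24, 0.26 and 0.37 in IMQ+H2O.

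Proteasome subunits behaved alike, with 39 of 42 changes positive and a median of 0.26. Of them 28 (66.7%) lay wholly higher, beside 15.1% of all genes tested, and 0 were called by edgeR against 8 by DESeq2. Psma7 was at 80.3, 81.2 and 81.3 CPM against 110, 107 and 118 CPM (log2 change 0.46 ± 0.0949, adjusted p = 0.0567). Psma3 was at 77.8, 81.4 and 82.5 CPM against 105, 101 and 106 CPM (log2 change 0.37 ± 0.0861, adjusted p = 0.0726). In both, controls differed by a few CPM only. Actin cytoskeleton genes had 32 of 38 changes positive, a median of 0.40 and 22 genes (57.9%) wholly higher. Pfn1, the actin-binding profilin, rose from 198, 208 and 204 CPM to 328, 367 and 424 CPM (log2 change 0.88 ± 0.131, adjusted p = 0.0247). Tmsb4x, which sequesters actin monomers, had a log2 change of 0.62 ± 0.129 (adjusted p = 0.0579). Leaving out 1 library of these groups kept the list medians between 0.27 and 0.34 for the synthetases, 0.23 and 0.29 for the proteasome and 0.35 and 0.49 for actin genes.

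Ribosomal protein genes lay closer to no change. Their 84 genes had 77 positive changes and a median of 0.14, and for 82 the 95% interval lay within 1 of no change on the log2 scale. Rps27l, a ribosomal protein variant, was called, from 37.6, 37.2 and 37.6 CPM to 58.0, 49.7 and 61.1 CPM (log2 change 0.59 ± 0.111, adjusted p = 0.0446). Rpl41 had the next smallest p (log2 change 0.59 ± 0.142, adjusted p = 0.0775). Among 66 translation factors, with a median of 0.14, Eef1e1, a scaffold of the synthetase complex, was called. It went from 9.61, 9.92 and 9.62 CPM to 19.2, 18.9 and 20.3 CPM (log2 change 1.002 ± 0.174, adjusted p = 0.0374), with very little spread in either group. Eif4e, the cap-binding factor, was at 32.9, 39.7 and 25.5 CPM against 67.0, 71.6 and 77.5 CPM (log2 change 1.14 ± 0.252, adjusted p = 0.0668).

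Some chaperones rose, in the endoplasmic reticulum and elsewhere. In the endoplasmic reticulum list 3 of 28 were called and the median was 0.19. Of the 28, 13 (46.4%) lay wholly higher, beside 15.1% of all genes tested. Calr, the lectin chaperone calreticulin, rose from 412, 410 and 438 CPM to 624, 769 and 850 CPM (log2 change 0.83 ± 0.157, adjusted p = 0.0443). Creld2, which is induced by unfolded protein, rose from 23.0, 24.7 and 23.6 CPM to 34.7, 41.0 and 43.7 CPM (log2 change 0.75 ± 0.123, adjusted p = 0.0314), and Sdf2l1, a cofactor of the chaperone BiP, by 1.51 ± 0.259 (log2, adjusted p = 0.0361). Of 20 heat shock genes Hspe1, the mitochondrial co-chaperonin, rose by 0.68 ± 0.122 (log2, adjusted p = 0.0407) and Fkbp5, an HSP90 co-chaperone induced by glucocorticoid, by 1.04 ± 0.195 (log2, adjusted p = 0.0445).

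Junction genes leaned lower, with 11 of 38 changes positive and a median of -0.55. The library medians of this list overlapped, at -0.29, 0.34 and 0.02 in VAS+H2O and -0.60, -0.21 and -0.56 in IMQ+H2O. Of them 15 (39.5%) lay wholly lower, beside 16.5% of all genes tested. Cldn8, a claudin of tight junctions, fell from 2.86, 3.67 and 6.71 CPM to 0.999, 0.995 and 1.01 CPM (log2 change -2.14 ± 0.353, adjusted p = 0.0316). Cdh11, a cadherin of fibroblasts, had a log2 change of -0.58 ± 0.159 (adjusted p = 0.100). Keratinocyte marker sums were lower in the same libraries and their part was not tested. Among 34 serpins and other protease inhibitors, 3 rose. Timp1, an inhibitor of metalloproteinases, went from 14.5, 18.9 and 16.3 CPM to 94.5, 221 and 217 CPM (log2 change 3.42 ± 0.536, adjusted p = 0.0279). Serpina3n, an inhibitor of neutrophil proteases, went from 160, 168 and 130 CPM to 621, 826 and 750 CPM (log2 change 2.26 ± 0.293, adjusted p = 0.0177), and Serpina3m of the same cluster rose by 2.36 ± 0.414 (log2, adjusted p = 0.0392).

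**Figure D4:**
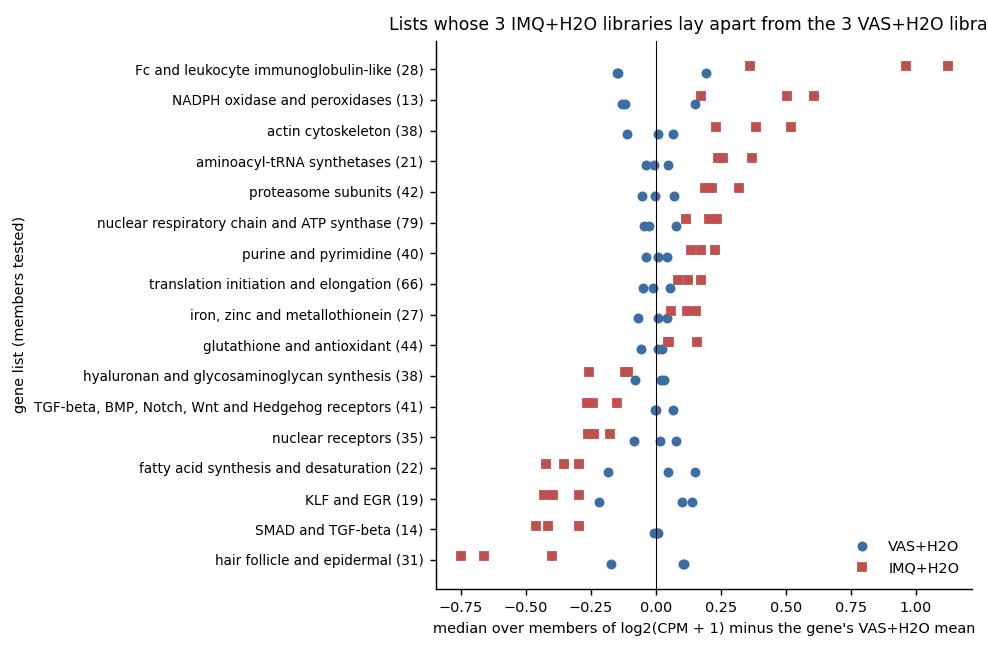
Median over the members of a list of log2(CPM + 1) minus the gene's VAS+H2O mean, 1 point per library, for the 17 of 55 lists whose groups did not overlap. In 10 lists the 3 IMQ+H2O squares lie to the right of the VAS+H2O circles and in 7 to the left, and aminoacyl-tRNA synthetases reach 0.24 to 0.37 and SMAD and TGF-beta factors -0.46 to -0.30 in IMQ+H2O.

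Among the 60 genes with the highest CPM per kilobase of exon, 2 were called, Fth1 and Ifitm2, both higher, beside 0.856% of all genes tested, and for 45 the 95% interval lay within 1 of no change on the log2 scale. Mitochondrial transcripts led the order per kilobase. The level of mt-Co1 was 23080 CPM per kilobase in VAS+H2O and 25400 in IMQ+H2O (log2 change 0.14, interval -0.30 to 0.58), that of Gm29216 was 17160 and 18580, and that of mt-Atp8 15480 and 17230. Gm29216 is a nuclear copy of mitochondrial sequence, so that its reads may belong to the mitochondrial gene. Ifitm2, an interferon-induced membrane protein that blocks virus entry, went from 318, 346 and 371 CPM to 601, 626 and 725 CPM (log2 change 0.92, interval 0.56 to 1.27, adjusted p = 0.0343).

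Further abundant genes kept the groups apart without passing the test, 11 of 60 higher and 8 of 60 lower with imiquimod, counts that include both called genes and stand beside 15.1% and 16.5% of all genes tested. Scd1, the desaturase that makes oleic acid and is abundant in sebaceous glands, was at 7466, 11220 and 11330 CPM against 4907, 5465 and 5864 CPM (log2 change -0.89, adjusted p = 0.0952). The sebaceous marker sums overlapped, 1269 to 1727 CPM and 1376 to 1607 CPM. The matrix genes Sparc and Dcn lay lower, with log2 changes of -0.46 (adjusted p = 0.215) and -0.31 (adjusted p = 0.1997). Fos and Zfp36, which respond at once to many stimuli, had log2 changes of -0.73 (adjusted p = 0.109) and -0.71 (adjusted p = 0.116). B2m, the light chain of class I molecules, was at 913, 629 and 901 CPM against 1186, 1713 and 1426 CPM (log2 change 0.82, adjusted p = 0.102). Mt2, a metallothionein, was at 196, 374 and 302 CPM against 614, 675 and 1176 CPM (log2 change 1.501, adjusted p = 0.0690), and the ferritin light chain Ftl1 at 665, 686 and 659 CPM against 865, 858 and 957 CPM (log2 change 0.42, adjusted p = 0.0939). These genes were chosen for mention after their values were seen.

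**Figure D5:**
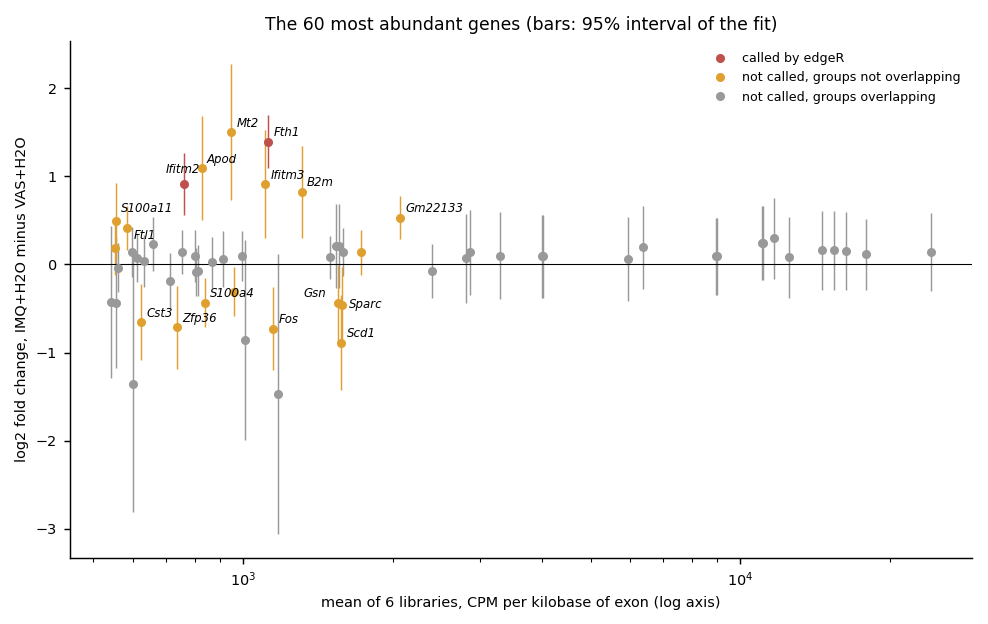
Log2 fold change of the 60 most abundant genes against their mean level in CPM per kilobase of exon (log axis), with the 95% interval of the edgeR fit as bars. The 2 called genes, Fth1 and Ifitm2, are red, genes whose groups did not overlap without a call are orange, and most genes on the right, which are mitochondrial, lie within 0.30 of 0.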

How the data were processed

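The data were RNA sequencing libraries of mouse ear dermis. The authors deposited 1 table of whole-number read counts per Ensembl gene, not normalized, for 52550 genes, of which 16554 had no count. The methods name STAR, Ensembl release 90 for GRCm38, StringTie and DESeq2, and the submitters' processing notes name FastQC, STAR 2.5, Cuffnorm and DESeq 1.22.1. The counting tool, its use of strand and its treatment of reads with several alignments are not given in the sources used here. The labels call the libraries strand-specific.

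Counts were tested in R 4.3.3 with edgeR 4.0.16 (limma 3.58.1), using filterByExpr (22430 genes kept), TMM factors and a quasi-likelihood fit of all 9 libraries with a coefficient per group. Adjusted p is Benjamini-Hochberg over all genes tested, called at 0.05 or lower. The study used DESeq2 with an absolute log2 fold change of at least 1. DESeq2 1.42.0 served as an alternative and the limit on the fold was dropped. The standard error of a log2 fold change is its size divided by the square root of F. The common biological coefficient of variation was 0.296. The fits were tested on simulated data. Library depth and a floor of 3 counts speak to counting error only.

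The members and the lists were chosen with earlier results of these data known. The 55 lists held 1738 tested genes. Of the symbols in these and the 18 marker lists, 1910 matched directly, 1 matched through an older name and 4 had no match. Named genes were the 10 rises and the 10 falls with the smallest p among called genes with an absolute log2 change under 2, groups that did not overlap and a mean of at least 100 scaled counts, leaving out Gm and Rik symbols, and 1 of these rises is not reported here. Named further were every called member of a list, the members with the smallest p in lists with fewer than 2 calls, the called genes of the 60 most abundant and the 3 at the top of that order. Coordinates and exon lengths come from GENCODE vM21 (GRCm38), and promoters from RefSeq (GRCm38.p6). The alternatives were DESeq2, RLE scaling, no filter on low counts, only the 6 libraries, a replicate block, robust dispersions, a fold limit and leaving out each library in turn.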

Additional observations from a re-analysis of the deposited data

How the results depend on the processing

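The count of 308 called genes became 1889 with the Wald test of DESeq2 and 1087 with only the 6 libraries, which share 308 and 305 genes with it. Leaving out 1 library gave 26 to 982 calls. The lowest values came without IMQ+H2O replicate 3 (26), IMQ+H2O replicate 2 (29), VAS+H2O replicate 3 (29) and VAS+H2O replicate 2 (35), followed by VAS+H2O replicate 1 (95) and IMQ+H2O replicate 1 (135), with fewer samples in each fit. Without IMQ+XYF replicate 1 or 2, which lie outside the compared groups, the calls rose to 506 and 982. RLE scaling (317), no filter on low counts (260) and robust dispersions (288) changed the count by less than 1.5 times. The fold limit of the study's methods left 223.

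A replicate block called 104 genes, of which 90 were among the 308. Deviations of libraries with the same number correlated at 0.125, 0.0713 and -0.0236 across genes. Those of libraries with different numbers correlated at -0.122 to 0.0515. With 3 libraries per group, these values cannot decide whether the numbers pair the samples.

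Of the 78 named called genes, 13 were called in every alternative, 26 in none of the fits that left out a library of the compared groups, and 44 lost the call under the replicate block. In 1 named gene, the mitochondrial copy Gm29216, the fitted change turned negative, to -0.03 without IMQ+H2O replicate 1, and leaving out single libraries gave a range of -0.026 to 0.245. RLE scaling moved the median of all genes from -0.02 to 0.00 and turned the sign of the median for the growth and cell cycle list, the retinoid, steroid and xenobiotic list and the integrin list, all of which lay near 0. The cause of these differences was not tested.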
